A study of Mus musculus with 12 samples.

Results

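The 8 genes described here encode receptors and membrane regulators through which B cells meet complement and antibody Fc regions: *Cd55*, *Cr2*, *Cr1l*, *Cd59a*, *Fcer2a*, *Fcgr2b*, *Fcrl1* and *Fcrla*. They were chosen by symbol, as entries of that name in the deposited gene-level tables, and all 8 were present among 43613 named items and among the 14607 genes that passed the filter for testing. A gene was tested when it reached 1 FPKM (fragments mapped per length of transcript and per size of library) in at least 3 of 12 libraries. RNA was sequenced from splenic B cells of female mice aged 6 months on a C57BL/6 background, sorted as B220+ GL7+ CD95+ germinal centre (GC) or B220+ GL7- CD95- non-GC cells. The 4 groups of 3 libraries were Ifnar1KO GC, Ifnar1KO non-GC, Sle1b GC and Sle1b non-GC, where Ifnar1KO stands for the label B6.Sle1b.IFNaR1-/- and Sle1b for the label B6.Sle1b. Every group, the controls included, carried Sle1b, a lupus susceptibility interval, and no group without it was analysed here. *Ifnar1* encodes 1 subunit of the receptor for type I interferons, and the design asks what its loss changes in GC and other B cells of this autoimmune-prone background. No label ties a library to its own animal, so p-values measure only how far these samples spread, and that spread may be technical.

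Complement is a cascade of plasma proteins that tags surfaces with fragments of C3 and can end in a pore through the membrane. CR2 (CD21), which in mice is made with CD35 from the same gene, binds C3 fragments on antigen and signals within a coreceptor complex that includes CD81 to lower the threshold of B cell activation. CD55 speeds the decay of the enzymes that cleave C3, CRRY (the product of *Cr1l*, a rodent regulator) acts as a cofactor for their inactivation, and CD59A blocks assembly of the membrane pore. Fc receptors read bound antibody: FcγRIIB, encoded by *Fcgr2b*, is the inhibitory IgG receptor of B cells, CD23, encoded by *Fcer2a*, is the low-affinity IgE receptor of mature B cells, and the Fc receptor-like proteins FCRL1, on the surface, and FCRLA, inside the cell, are related to them in sequence. FCRL1 is thus a relative of Fc receptors rather than an established one, and *Cd55*, *Cr1l* and *Cd59a* encode regulators rather than signalling receptors. Germinal centres are the sites in lymphoid follicles where activated B cells divide, mutate their antibody genes and are selected.

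The 5 promoters below are shown because they belong to the 4 genes that were lower in GC cells in every pair of libraries (*Cd55*, *Cr2*, *Fcer2a* and *Fcrl1*) and to *Fcrla*, whose promoter holds an interferon-type element. Each runs 5′ to 3′ from 250 bases before to 50 bases after the annotated start, as given by RefSeq for build GRCm38.p6, and capitals mark motif matches. The windows lie at chr1:130462695-130462994 on the minus strand (*Cd55*), chr1:195176670-195176969 on the minus strand (*Cr2*), chr8:3694125-3694424 on the minus strand (*Fcer2a*, the first of 3 annotated starts), chr3:87376137-87376436 on the plus strand (*Fcrl1*) and chr1:170927534-170927833 on the minus strand (*Fcrla*).
Cd55: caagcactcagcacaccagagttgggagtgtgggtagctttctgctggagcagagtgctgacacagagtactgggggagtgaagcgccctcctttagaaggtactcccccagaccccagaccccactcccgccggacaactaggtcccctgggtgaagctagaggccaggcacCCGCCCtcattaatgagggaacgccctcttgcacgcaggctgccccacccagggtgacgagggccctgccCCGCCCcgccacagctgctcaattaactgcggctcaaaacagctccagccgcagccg
Cr2: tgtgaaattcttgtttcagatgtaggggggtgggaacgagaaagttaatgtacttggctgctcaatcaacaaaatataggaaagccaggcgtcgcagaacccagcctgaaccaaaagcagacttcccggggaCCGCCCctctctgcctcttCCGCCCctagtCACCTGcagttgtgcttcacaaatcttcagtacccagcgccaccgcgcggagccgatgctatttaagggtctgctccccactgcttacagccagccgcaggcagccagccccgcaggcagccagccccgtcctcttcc
Fcer2a: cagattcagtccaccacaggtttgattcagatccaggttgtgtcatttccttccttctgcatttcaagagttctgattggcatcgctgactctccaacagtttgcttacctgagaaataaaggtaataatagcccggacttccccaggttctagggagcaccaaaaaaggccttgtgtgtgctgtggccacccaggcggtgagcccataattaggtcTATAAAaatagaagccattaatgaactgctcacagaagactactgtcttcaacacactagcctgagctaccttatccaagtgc
Fcrl1: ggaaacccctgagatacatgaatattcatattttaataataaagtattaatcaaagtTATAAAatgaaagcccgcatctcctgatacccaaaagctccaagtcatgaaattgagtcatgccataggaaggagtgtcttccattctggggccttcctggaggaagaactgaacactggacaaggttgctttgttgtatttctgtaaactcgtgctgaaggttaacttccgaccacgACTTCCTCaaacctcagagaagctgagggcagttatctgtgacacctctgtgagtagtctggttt
Fcrla: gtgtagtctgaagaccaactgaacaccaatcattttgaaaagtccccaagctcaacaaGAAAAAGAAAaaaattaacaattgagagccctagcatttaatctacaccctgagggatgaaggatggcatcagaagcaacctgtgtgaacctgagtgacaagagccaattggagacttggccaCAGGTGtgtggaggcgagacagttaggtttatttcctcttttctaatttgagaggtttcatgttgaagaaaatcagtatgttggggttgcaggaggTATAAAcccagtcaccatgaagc

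Motifs were searched on both strands as plain letters: the interferon-stimulated response element core GAAANNGAAA, GAS (TTCNNNGAA), the STAT6 site TTCNNNNGAA, the EBF1 site TCCCNNGGGA, the octamer ATGCAAAT, the GC box GGGCGG, the E-box CACCTG, the PU.1 core GAGGAAGT and the TATA box TATAAA. GAS and the STAT6 site share their outer letters and differ in spacing, and no other pair of motifs overlapped in the windows shown. *Cd55* held 2 GC boxes, the first beginning 77 bases before the start, and *Cr2* held 2 GC boxes and 1 E-box; 35.7% of the 32851 promoters in the RefSeq table held a GC box and 20.2% an E-box. *Fcrl1* held a PU.1 core 15 bases before its start, found in 3.20% of promoters. The interferon element core, found in 3.44% of promoters, lay 192 bases before the start of *Fcrla* and 187 bases before that of *Cd59a*, and was not found in the windows of the other 6 genes. The first *Fcer2a* window held a TATA box 33 bases before its start, a motif in 13.6% of promoters that *Fcrl1* and *Fcrla* held elsewhere in theirs. The second *Fcer2a* start, whose window lies at chr8:3690812-3691111, had the STAT6 letters 168 bases before it, found in 6.95% of promoters. These matches describe letters in a window, and no binding was measured.

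In the annotation of build GRCm38, 5 of the 8 genes lie on chromosome 1, where *Cr2* (chr1:195136811-195176716) and *Cr1l* (chr1:195097382-195131586) neighbour each other, as do *Fcgr2b* (chr1:170958617-170976547) and *Fcrla* (chr1:170917576-170927583). *Cd55* (chr1:130439027-130462744) sits beside *Daf2*, its paralogue, and the authors' tables put both in 1 locus span, so reads that match either copy could have been divided between them. That span also holds *Gm15674*, *Gm16083*, *Gm37109* and *Gm37283*, with *Gm15674* at up to 41.5 FPKM in Ifnar1KO non-GC. *Fcer2a* shares a span with *Trappc5*, *Fcgr2b* with *Gm38204* and *Fcrla* with *Gm2962*. In Sle1b GC replicate 2, *Gm2962* had 53.1 FPKM against 21.0 FPKM for *Fcrla*. How reads within a span were divided is not given in the sources used here. Exons of *Cd55* overlap those of *Gm16083* on the opposite strand by 102 bases and exons of *Fcgr2b* overlap those of *Gm38204* by 155 bases. Strand was not recorded as far as the labels say, and reads from such a partner cannot be told apart from reads of the gene. As listed, *Gm16083* had at most 2.54 FPKM and *Gm38204* at most 1.58 FPKM in any library. The other members are *Fcer2a* (chr8:3681737-3694175), *Fcrl1* (chr3:87376387-87402934) and *Cd59a* (chr2:104095801-104115354).

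The 4 libraries of batch 3, 1 from each group, stood apart. They had 5324 to 9987 named items at 1 FPKM or more, against 10092 to 11775 in the 8 libraries of batches 1 and 2, and 104048 to 208065 unnamed loci above 0, against 10129 to 61655. The summed FPKM of 8 GC B cell markers, among them *Fas*, the gene of the sorted marker CD95, was 290, 779 and 18.7 in Ifnar1KO GC replicates 1 to 3 against 58.5, 89.7 and 20.7 in Ifnar1KO non-GC, and 502, 979 and 20.8 in Sle1b GC against 52.5, 68.0 and 19.2 in Sle1b non-GC, so the marker sums separated the labelled cell types in batches 1 and 2 but not in batch 3. The sum of 8 B cell markers was also lower in batch 3 than in batches 1 and 2 in each group, with the values given below beside the GC differences. *Ifnar1* itself had 14.1, 15.4 and 0 FPKM in Ifnar1KO GC against 8.11, 9.89 and 6.80 FPKM in Sle1b GC, and 51.1, 69.1 and 2.58 FPKM in Ifnar1KO non-GC against 14.5, 36.1 and 3.45 FPKM in Sle1b non-GC. It was higher in the libraries labelled Ifnar1KO in all 4 pairs of batches 1 and 2, which goes against the label. The structure of the allele is not given in the sources used here, and reads were not separated by part of the gene. The reason for these values was not tested. Ifnar1KO below means the libraries so labelled. Results are therefore given with and without batch 3, and the replicate number equals the batch number.

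Among the complement genes, *Cd55* was the most abundant of the 8 members per length in 9 of 12 libraries. It had 57.6, 153.9 and 14.5 FPKM in Ifnar1KO GC replicates 1 to 3, against 408.5, 666.3 and 76.0 FPKM in Ifnar1KO non-GC. In the Sle1b libraries it had 48.0, 107.3 and 7.73 FPKM in GC, against 314.3, 602.4 and 81.1 FPKM in non-GC. Each GC library was below the non-GC library of its own batch and genotype. It stood at 14.1% to 23.1% of that level in batches 1 and 2, and in batch 3 at 19.1% in Ifnar1KO and 9.53% in Sle1b. The actin gene *Actb* stood at 10.5% and 4.80% in these 2 pairs of batch 3, where *Cd55* thus fell by less, and at 54.5% to 108% in batches 1 and 2. Levels differed so much between batches that the ranges of *Cd55* over all 12 libraries overlap. In batches 1 and 2 alone all 4 GC values lay below all 4 non-GC values. The fitted GC minus non-GC difference, averaged over genotypes, was -2.60 on the log2(FPKM + 1) scale (SE 0.36, 95% interval -3.39 to -1.81, adjusted p = 0.0314, limma). *Cd55* thus fell in GC cells, and was the only member past the threshold of 0.05 after Benjamini-Hochberg adjustment over all genes tested. The same rule called 4 genes in all (0.0274% of those tested, 0.0137% lower and 0.0137% higher), and the other 3, named here after their values were seen, were the light chain segment *Iglc4* (-4.53), which was lower, and the proliferation genes *Mki67* (4.56) and *Tpx2* (3.21), which were higher. All genes together had a median difference of -0.25, and after each library was shifted to a common median *Cd55* stood at -2.43 (adjusted p = 0.0512). Its call was also lost in 10 of 12 fits that left out 1 library (adjusted p 0.0424 to 0.18 over the 12) and without the batch block (adjusted p = 0.999), while the difference stayed between -2.76 and -2.43 in all 25 alternative fits.

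*Cr2* followed the same direction from a lower level. It had 37.6, 143.1 and 0.0773 FPKM in Ifnar1KO GC against 193.3, 240.0 and 7.14 FPKM in Ifnar1KO non-GC. In Sle1b it had 41.3, 92.6 and 0 FPKM in GC against 156.0, 256.1 and 29.9 FPKM in non-GC. All 6 GC libraries were below their partners, at 19.4% to 59.6% of the partner's level in batches 1 and 2, and both GC libraries of batch 3 were near or at 0. The fitted difference of -2.38 (SE 0.51, 95% interval -3.48 to -1.28, limma adjusted p = 0.0831) did not pass the threshold.

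*Cr1l*, the gene of CRRY, had 70.2, 50.5 and 35.2 FPKM in Ifnar1KO GC against 77.8, 114.6 and 4.20 FPKM in Ifnar1KO non-GC. It had 36.7, 62.4 and 0.686 FPKM in Sle1b GC against 57.3, 114.4 and 4.37 FPKM in Sle1b non-GC. It was lower in GC in 5 of 6 pairs, and the exception was Ifnar1KO replicate 3, where the GC library was 8.40 times its partner. The averaged difference of -0.28 (SE 0.55, 95% interval -1.47 to 0.91, limma adjusted p = 0.824) did not pass. Without batch 3 the value was -0.70 (SE 0.32, adjusted p = 0.212), with all 4 remaining pairs lower in GC.

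*Cd59a* was barely detected: it was listed at 0 in 5 of 12 libraries, and ranked last of the members in 8. It had 0, 4.47 and 0 FPKM in Ifnar1KO GC against 0.552, 0 and 3.99 FPKM in Ifnar1KO non-GC, and 4.55, 2.16 and 0.568 FPKM in Sle1b GC against 0, 0 and 3.18 FPKM in Sle1b non-GC. The pairs were split at 3 lower and 3 higher in GC. Items with a failed status were left out, yet an exact 0 need not mean absence, so no fold is given against it. One read on a locus of 1 kb was worth 0.121 to 0.407 FPKM depending on the library, so the lowest of these values above 0 rest on few reads. It passed the filter through 5 libraries of at least 1 FPKM spread over all groups, and its fitted difference of 0.37 (SE 0.63, 95% interval -0.99 to 1.73, limma adjusted p = 0.793) was within the spread between replicates.

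**Figure D1:**
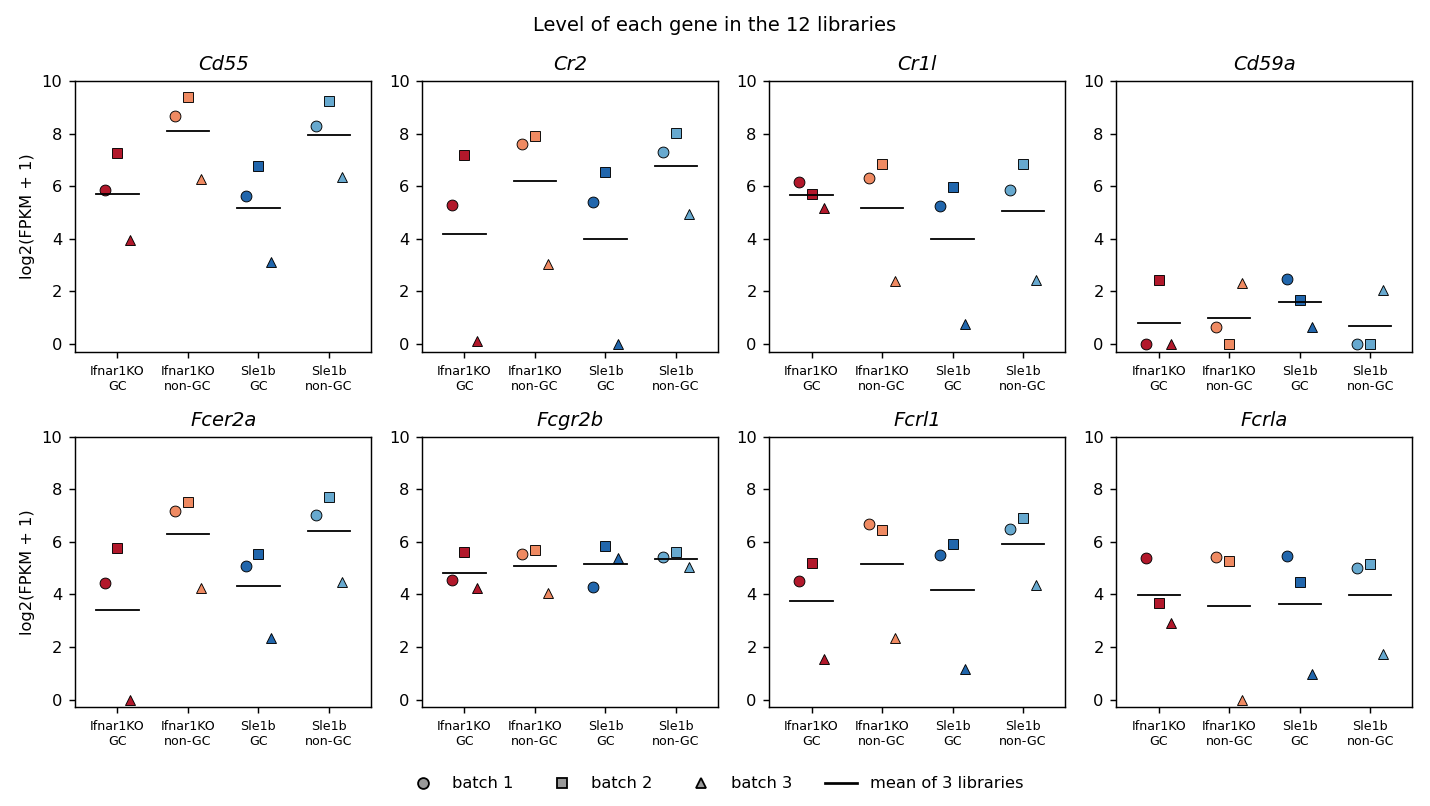
Level of each of the 8 genes in the 12 libraries as log2(FPKM + 1), in the order Ifnar1KO GC, Ifnar1KO non-GC, Sle1b GC and Sle1b non-GC; circles, squares and triangles are batches 1, 2 and 3 and the line is the mean of 3 libraries. *Cd55*, *Cr2*, *Fcer2a* and *Fcrl1* sit lower in GC than in non-GC libraries of the same batch, the means of *Fcgr2b* lie between 4.79 and 5.35, and the triangles of batch 3 are low in most panels.

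Among the Fc receptor genes, *Fcer2a* (CD23) was lower in GC in every pair. It had 20.8, 54.0 and 0 FPKM in Ifnar1KO GC against 144.3, 181.6 and 17.8 FPKM in Ifnar1KO non-GC. It had 32.8, 45.4 and 4.03 FPKM in Sle1b GC against 130.1, 208.3 and 21.4 FPKM in Sle1b non-GC. GC libraries of batches 1 and 2 held 14.4% to 29.7% of their partners' level, and these 4 values lay below all 4 non-GC values. The fitted difference was -2.50 (SE 0.42, 95% interval -3.40 to -1.59, limma adjusted p = 0.0577), just short of the threshold, which it passed in 4 of 25 alternative fits.

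*Fcrl1* had 21.7, 35.3 and 1.91 FPKM in Ifnar1KO GC against 100.1, 86.1 and 4.12 FPKM in Ifnar1KO non-GC. It had 44.3, 58.6 and 1.22 FPKM in Sle1b GC against 89.2, 117.6 and 19.5 FPKM in Sle1b non-GC. All 6 pairs were lower in GC, at 21.7% to 49.9% of the partner's level in batches 1 and 2. The fitted difference of -1.57 (SE 0.41, 95% interval -2.45 to -0.69, limma adjusted p = 0.113) did not pass.

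*Fcgr2b*, the gene of the inhibitory IgG receptor, showed no common direction. It had 22.3, 47.8 and 17.7 FPKM in Ifnar1KO GC against 45.4, 50.2 and 15.4 FPKM in Ifnar1KO non-GC. It had 18.4, 56.0 and 41.0 FPKM in Sle1b GC against 41.3, 47.9 and 32.1 FPKM in Sle1b non-GC. Replicate 1 was lower in GC in both genotypes, at 49.2% and 44.6% of the non-GC level, whereas replicates 2 and 3 lay at 95.2% to 128% of it; 3 pairs were lower and 3 higher. The fitted difference was -0.24 (SE 0.40, 95% interval -1.10 to 0.63, limma adjusted p = 0.789), and this interval leaves out the sizes fitted for *Cd55*, *Cr2*, *Fcer2a* and *Fcrl1*. The difference between members was not itself tested. In batch 3 it had 15.4 to 41.0 FPKM, and was the most abundant member in Sle1b GC.

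*Fcrla* had 40.4, 11.7 and 6.61 FPKM in Ifnar1KO GC against 42.2, 37.9 and 0 FPKM in Ifnar1KO non-GC. It had 43.1, 21.0 and 0.955 FPKM in Sle1b GC against 30.9, 34.7 and 2.35 FPKM in Sle1b non-GC. In GC 4 pairs were lower and 2 higher, and the fitted difference of 0.04 (SE 0.51, 95% interval -1.07 to 1.15, limma adjusted p = 0.976) was within the spread between replicates. The related gene *Fcrl5* stood at -1.45 (adjusted p = 0.188).

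**Figure D2:**
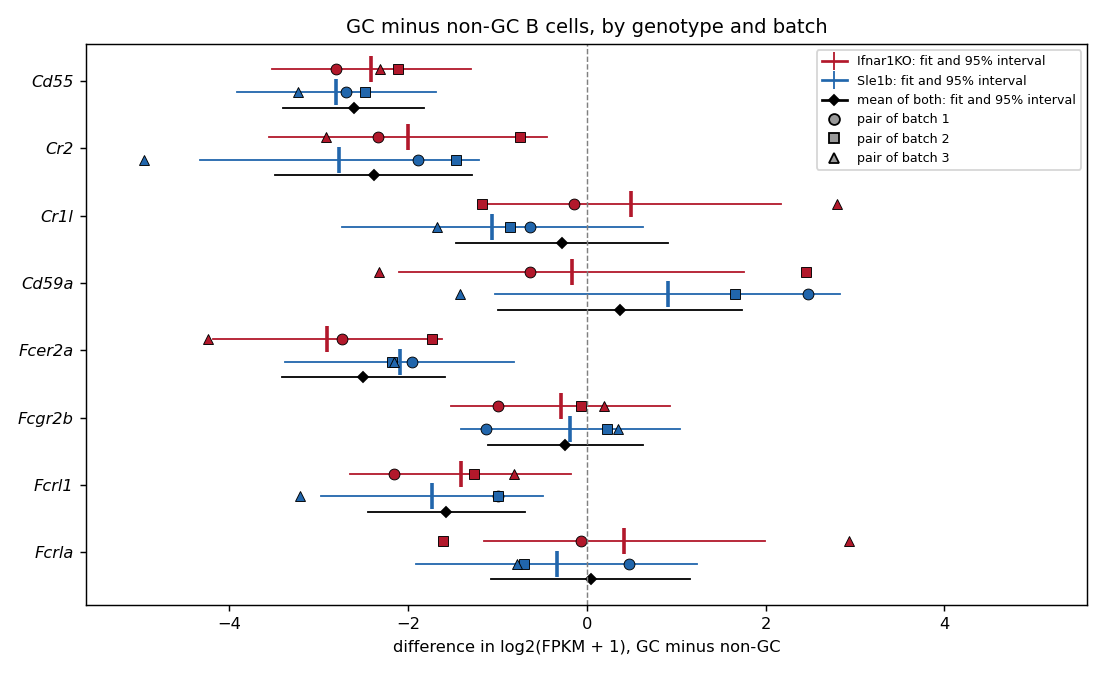
Difference in log2(FPKM + 1), GC minus non-GC, for each gene: symbols are the single pairs of each batch, upright marks with bars the fitted difference and 95% interval in Ifnar1KO (red) and Sle1b (blue), and diamonds the mean of both genotypes with its interval. All 6 pairs lie left of 0 for *Cd55*, *Cr2*, *Fcer2a* and *Fcrl1*, and on both sides of 0 for the other 4 genes.

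Over the 8 members, 4 were lower in GC in all 6 pairs, against 850 of 14607 tested genes (5.82%). At an unadjusted p under 0.05 the same 4 were lower in GC in the averaged comparison, beside 13.0% of all genes, and 0 members were higher, beside 4.48%. The median difference of the members was -0.93, against -0.25 for all genes. Members were picked with earlier results of these data known, so these shares and medians describe the list and test nothing. The genes set beside them were not matched for abundance. Within single genotypes no member was called: the test called 1 gene in Ifnar1KO (0.00685%), which was *Iglc4*, and 0 in Sle1b, where 1387 genes (9.50%) had an unadjusted p under 0.05. *Cd55* stood at -2.41 in Ifnar1KO (SE 0.52, limma adjusted p = 0.324) and -2.80 in Sle1b (SE 0.52, adjusted p = 0.309), *Fcer2a* at -2.90 and -2.09 (SE 0.59 each), *Cr2* at -2.00 and -2.77 (SE 0.72 each) and *Fcrl1* at -1.41 and -1.73 (SE 0.57 each). The differences of these 4 between genotypes were smaller than their own standard errors of 0.73 to 1.02, and limma's interaction test between genotype and cell type called 0 genes (0%), with 547 (3.74%) at an unadjusted p under 0.05.

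Without batch 3, with the filter redone on the 8 remaining libraries, 12257 genes were tested, and 562 (4.59%) were called in the averaged GC comparison, of which 340 (2.77%) were lower. *Cd55* (-2.52, SE 0.26, adjusted p = 0.00517), *Fcer2a* (-2.15, SE 0.28, adjusted p = 0.0116), *Cr2* (-1.61, SE 0.32, adjusted p = 0.0315) and *Fcrl1* (-1.35, SE 0.28, adjusted p = 0.0361) all fell in GC cells in that limma fit. *Cr1l*, *Fcgr2b*, *Fcrla* and *Cd59a* did not pass, at -0.70, -0.49, -0.47 and 1.49 (adjusted p 0.168 to 0.47). *Cd55* also passed within Ifnar1KO (-2.46, adjusted p = 0.047, 1 of 38 genes or 0.310% called), and in Sle1b, where 7 genes (0.0571%) were called, stood at -2.58 (adjusted p = 0.0583). With batch 3 left out but the original 14607 genes kept, *Cd55* stood at the same -2.52 with an adjusted p of 0.0744, and 1 gene, a higher one, was called. The calls of *Fcer2a*, *Cr2* and *Fcrl1* were lost there too, with adjusted p of 0.0744, 0.0932 and 0.0805.

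Some sums of cell type markers were also lower in GC, and others were not. The sum of the 8 general B cell markers was lower in GC in all 6 pairs. It was 1180, 2280 and 35.0 FPKM in Ifnar1KO GC against 2280, 2300 and 272 FPKM in Ifnar1KO non-GC. In Sle1b it was 1530, 2190 and 35.7 FPKM in GC against 2060, 2430 and 232 FPKM in non-GC. Single markers could differ from the sum: *Cd22* had 225.6 and 340.8 FPKM in Sle1b GC replicates 1 and 2 against 155.0 and 226.6 FPKM in Sle1b non-GC. The 8 follicular B cell markers summed to 1490, 2530 and 121 FPKM in Ifnar1KO GC against 2900, 3230 and 499 FPKM in Ifnar1KO non-GC, and to 1970, 1900 and 138 FPKM in Sle1b GC against 2640, 4230 and 608 FPKM in Sle1b non-GC, lower in GC in all 6 pairs. *Ighd*, the IgD heavy chain gene, alone made up 82.2% to 98.9% of these sums; the other 7 markers summed to 150, 141 and 1.36 FPKM in Ifnar1KO GC against 517, 489 and 25.4 FPKM in Ifnar1KO non-GC, and to 172, 170 and 4.52 FPKM in Sle1b GC against 413, 580 and 42.3 FPKM in Sle1b non-GC, again lower in GC in every pair. The 9 marginal zone B cell markers summed to 65.5, 38.8 and 5.85 FPKM in Ifnar1KO GC against 130, 112 and 4.54 FPKM in Ifnar1KO non-GC, and to 39.8, 73.1 and 32.3 FPKM in Sle1b GC against 133, 149 and 13.3 FPKM in Sle1b non-GC, lower in GC in batches 1 and 2. Follicular dendritic cells, which display CR2 and FcγRIIB strongly, had low marker values: *Serpina1e* and *Pdpn* were at 0 in all 12 libraries, *Cxcl13* was at 0 in 11 of them, and 9 such markers summed to 0 to 8.27 FPKM in batches 1 and 2 and 3.86 to 17.7 FPKM in batch 3. Myeloid markers, 12 in number, summed to 37.1, 38.6 and 0.0681 FPKM in Ifnar1KO GC against 53.0, 24.0 and 3.95 FPKM in Ifnar1KO non-GC. In Sle1b they summed to 175, 22.0 and 9.11 FPKM in GC against 48.8, 46.5 and 16.2 FPKM in non-GC. *C1qa* was at 0 throughout, whereas *S100a9*, *S100a8* and *Lyz2* had 69.9, 60.25 and 28.37 FPKM in Sle1b GC replicate 1. The 8 NK cell markers summed to 0.896, 0.398 and 1.42 FPKM in Ifnar1KO GC against 14.9, 19.9 and 3.19 FPKM in Ifnar1KO non-GC, and to 12.3, 0.93 and 0 FPKM in Sle1b GC against 29.6, 11.2 and 24.8 FPKM in Sle1b non-GC, lower in GC in all 6 pairs. The sum of plasmacytoid dendritic cell markers was lower in GC in 5 of 6 pairs. *Tcf4* made up much of it in batches 1 and 2, at 26.8 of 35.1 and 59.6 of 64.3 FPKM in Ifnar1KO GC replicates 1 and 2. Sums of T cell, plasma cell and erythroid and platelet markers were lower in GC in 2 of 6 pairs each. The part of these cell types in the members' differences was not tested, and in sorted bulk samples fewer cells of a type and less RNA per cell cannot be told apart.

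The comparison of Ifnar1KO with Sle1b asks what the labelled loss of the interferon receptor chain changed, and its direction rests on the labels. The *Ifnar1* values above went against these labels in batches 1 and 2 but not in batch 3, and the reason was not tested. No member was called in either cell type. The test called 0 of 14607 genes in GC (0%) and 0 in non-GC (0%), with 959 (6.57%) and 243 (1.66%) at an unadjusted p under 0.05. *Cd55* was higher in Ifnar1KO in 5 of 6 pairs, by little: 0.53 in GC (SE 0.52, 95% interval -0.58 to 1.65) and 0.14 in non-GC (95% interval -0.97 to 1.26). *Cr2* stood at 0.20 in GC (95% interval -1.36 to 1.76) and -0.57 in non-GC (-2.13 to 0.99), with 3 pairs each way. *Fcer2a* stood at -0.91 in GC (-2.19 to 0.38) and -0.10 in non-GC (-1.38 to 1.18). The GC value rested on Ifnar1KO GC replicate 3, where *Fcer2a* was listed at 0: it was -0.20 without that library, and -1.47 without Ifnar1KO GC replicate 2. Without batch 3 the GC and non-GC values were 0.39 and 0.26 for *Cd55*, 0.24 and 0.11 for *Cr2* and -0.19 and -0.02 for *Fcer2a*. These intervals still allow changes of several fold, so equal levels were not shown.

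*Cr1l* had the largest fitted value in GC, 1.68 (SE 0.78, 95% interval 0.00 to 3.36, unadjusted p = 0.0499, limma adjusted p = 0.745), and this rested on batch 3. Ifnar1KO GC replicate 3 was 51.4 times Sle1b GC replicate 3, at 35.2 against 0.686 FPKM, while replicates 1 and 2 were 1.91 and 0.808 times their partners. The value was 0.48 without Ifnar1KO GC replicate 3, 1.05 without Sle1b GC replicate 3, 2.59 without Ifnar1KO GC replicate 2 and 0.31 without batch 3 (SE 0.45, adjusted p = 0.852). In non-GC cells *Cr1l* stood at 0.13 (95% interval -1.55 to 1.81), where replicates 1 to 3 were 1.36, 1.00 and 0.960 times their Sle1b partners.

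*Fcrl1* was lower in Ifnar1KO in 4 of 6 pairs, at -0.44 in GC (95% interval -1.68 to 0.80) and -0.76 in non-GC (-2.00 to 0.48). Without batch 3 its GC value was -0.86 (SE 0.40, limma adjusted p = 0.552), with 21.7 and 35.3 FPKM in Ifnar1KO GC against 44.3 and 58.6 FPKM in Sle1b GC. Its non-GC value was -0.14 without batch 3, -0.20 without Sle1b non-GC replicate 3 and -0.49 without Ifnar1KO non-GC replicate 3. *Fcgr2b* stood at -0.37 in GC (-1.60 to 0.85) and -0.27 in non-GC (-1.49 to 0.95), and both turned to 0.02 and 0.10 without batch 3. *Fcrla* and *Cd59a*, whose promoters hold the interferon element core described above, stood at 0.36 and -0.78 in GC and -0.39 and 0.30 in non-GC, with standard errors of 0.725 to 0.89. Without batch 3 they stood at -0.44 and -0.84 in GC and 0.28 and 0.32 in non-GC. Only 1 member, *Cr1l* in GC, had an unadjusted p under 0.05 in either cell type, and the members' directions were mixed. Without batch 3 no member was called either, with 1 gene (0.00816%) called in GC and 0 in non-GC.

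**Figure D3:**
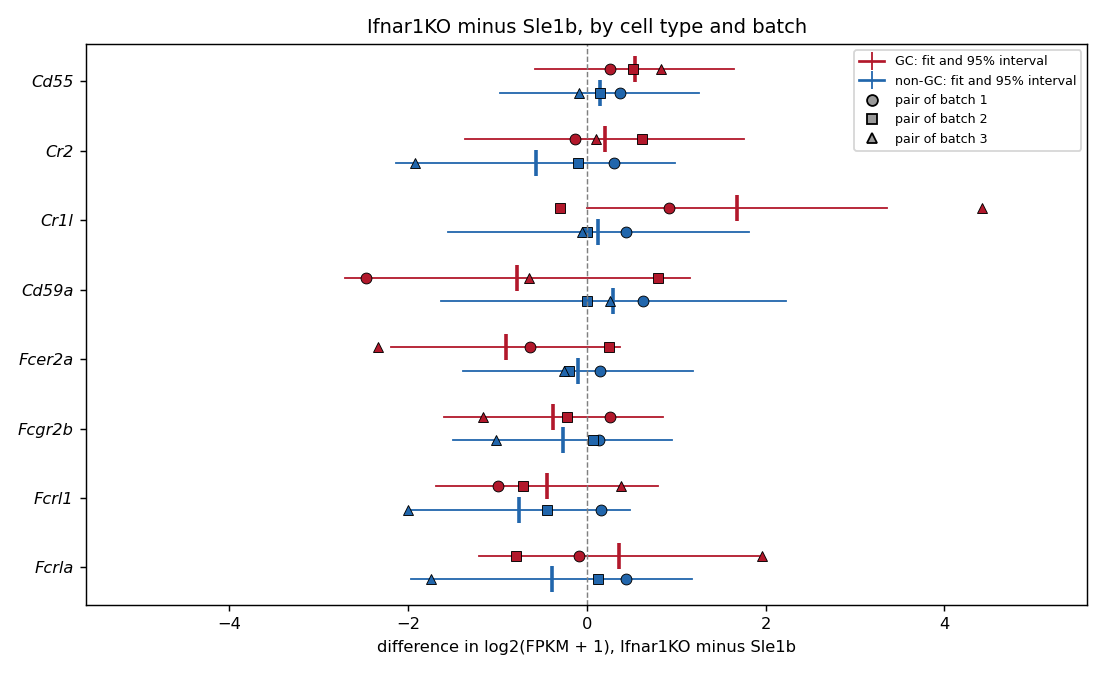
Difference in log2(FPKM + 1), Ifnar1KO minus Sle1b, for each gene in GC (red) and non-GC (blue) cells: symbols are single pairs of each batch, upright marks with bars the fitted difference and 95% interval. The intervals cross 0 for all genes except *Cr1l* in GC, whose lower end is 0.00 and whose batch 3 pair lies at 4.43.

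By group means of log2(FPKM + 1), *Cd55* was ordered as Ifnar1KO non-GC (8.11), Sle1b non-GC (7.97), Ifnar1KO GC (5.70) and Sle1b GC (5.17), and neither pair of neighbours that share a cell type differed beyond its interval. For *Cr2* the order was Sle1b non-GC (6.75), Ifnar1KO non-GC (6.18), Ifnar1KO GC (4.18) and Sle1b GC (3.98). *Fcer2a* (6.41, 6.31, 4.32 and 3.41) and *Fcrl1* (5.91, 5.15, 4.18 and 3.74) shared the order Sle1b non-GC, Ifnar1KO non-GC, Sle1b GC, Ifnar1KO GC. For *Fcgr2b* the 4 means lay between 4.79 and 5.35, for *Fcrla* between 3.57 and 3.99, for *Cr1l* between 3.99 and 5.67 and for *Cd59a* between 0.69 and 1.59, and no difference fitted between these groups passed the threshold.

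After the mean of each batch was subtracted, Pearson r over the 8 libraries of batches 1 and 2 was 0.850 to 0.976 among the 4 genes lower in GC in every pair. Cell type was kept in these values, so the GC difference by which the 4 were picked enters them, and they add nothing to it. With these 4 genes, r was 0.649 to 0.781 for *Fcgr2b*, 0.508 to 0.737 for *Cr1l*, 0.202 to 0.457 for *Fcrla* and -0.681 to -0.438 for *Cd59a*. The libraries share cell type, batch and depth, and the values describe them only. Over all 12 libraries the tested genes most like *Cd55* were *Arhgef3* (r = 0.973, 0.977 over 8), *Iglc4* (0.968) and *Mynn* (0.963). Those most like *Cr2* were *Lyn* (0.981, 0.937 over 8), *Bank1* (0.980) and *Man1a* (0.980), and among those most like *Fcer2a* were *Gm8995* (0.975) and *Dmxl1* (0.974). *Fcrl1* was most like the entry *Trim34a*,*Trim34b* (0.985), *Gm4294* (0.976) and *Rpl15* (0.974). For *Cr1l* and *Fcgr2b* the leading genes were *Rps3a1* (0.960, 0.871 over 8) and *Gm23582* (0.954, 0.957 over 8). For *Cd59a* and *Fcrla* they were *Gm17613* (0.934, 0.924 over 8) and the entry *Bnipl*,*Gm128* (0.911, 0.781 over 8).

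Related genes were counted by list in the averaged GC comparison, and no gene of the 6 other lists was called by limma. Of the other complement regulators and receptors 12 of 16 were tested, 4 below and 8 above 0, with a median of 0.21. *Daf2*, the *Cd55* paralogue and the current *Cd55b*, stood lowest at -1.92 (SE 0.46, adjusted p = 0.0949), with 0.191, 2.43 and 0 FPKM in Ifnar1KO GC against 7.91, 7.82 and 4.71 FPKM in Ifnar1KO non-GC, and 0.352, 1.01 and 0 FPKM in Sle1b GC against 6.22, 8.90 and 0 FPKM in Sle1b non-GC. *Cfi*, the protease that inactivates C3b, stood at 0.92 (adjusted p = 0.227) and *Itgam*, a chain of complement receptor 3, at 0.90 (adjusted p = 0.322). Of 19 complement components 4 were tested, with a median of 0.29, and *Cfp* (0.44), *C1qc* (0.37) and *C6* (0.21) led them.

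Of the CR2 coreceptor list 9 of 11 genes were tested, 6 below and 3 above 0, with a median of -0.33; the kinase gene *Lyn* (-1.38, adjusted p = 0.134) was the furthest from 0, and the exchange factor gene *Vav1* stood at -0.92. Of the other Fc and Fc-like receptors 8 of 17 were tested, 5 below and 3 above 0, with a median of -0.22, led by *Faim3*, which encodes the IgM Fc receptor (-1.85, adjusted p = 0.149), *Fcrl5* and *Fcamr* (1.26, adjusted p = 0.52). Of 16 inhibitory genes 15 were tested, 8 below and 7 above 0, with a median of -0.15; the inhibitory receptor gene *Btla* stood at -2.49 (SE 0.48, adjusted p = 0.0737), *Lilrb4* at 1.47 and the phosphatase gene *Ptpn6* at -1.13. Of 8 genes tied to CD23 shedding and binding, all were tested, 5 below and 3 above 0, with a median of -0.26, and *Il4ra*, the IL-4 receptor chain, stood at -1.54 (adjusted p = 0.116), *Itgb3* at 1.06 and *Traf1* at 1.00. The medians of these lists lay between -0.33 and 0.29, beside -0.93 for the 8 members, of which 6 were below 0, and -0.25 for all genes. Members and lists were both chosen with earlier results of these data known, so this contrast is a description and not a test.

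**Figure D4:**
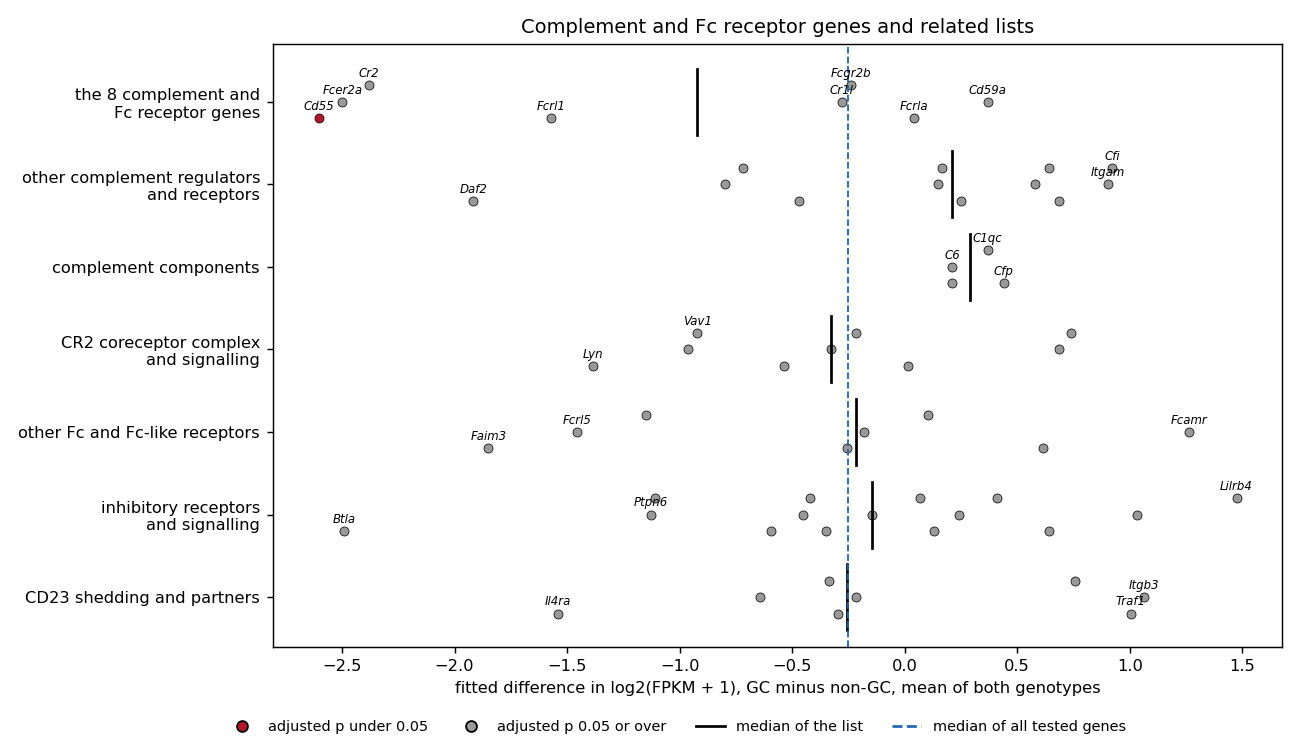
Fitted difference in log2(FPKM + 1), GC minus non-GC averaged over both genotypes, for the 8 members and for the tested genes of 6 related lists; each point is a gene, black lines are list medians and the dashed line is the median of all tested genes at -0.25. The only point past an adjusted p of 0.05 is *Cd55*, and *Fcer2a*, *Cr2* and *Btla* lie close to it.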

How the data were processed

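Per the labels, sorted B cells were lysed in Trizol and cDNA was amplified from low input (SMARTer) before Nextera XT library preparation; per the submitters' processing notes, the tools included TopHat2 2.0.9, Bowtie2 2.1.0, Cuffdiff and Cufflinks 2.2.1, on build GRCm38. The 17 deposited tables each give FPKM values, computed and normalized by the authors, for 1 pair of libraries of the same batch, over 506504 loci. The deposited p-values, q-values and log2 fold changes were not used. In batch 1 the direct table of Sle1b GC against Sle1b non-GC was not used here. All sample columns were matched to labelled samples.

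Within a batch, the same library differed between tables by 1 constant factor (99th percentile of deviations at most 0.0007825 on the log2 scale), so libraries were joined by fitting 1 factor per library and table. Levels compared across batches come from separately normalized tables. Of 43622 named items, 9 with a failed status were left out. Low values were whole multiples of 1 read, within 0.1 read, for 100% of low loci of 800 to 2500 bp; depth beyond this is unknown, and no count test was run because FPKM is not a count.

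Tests used limma 3.58.1 in R 4.3.3 on log2(FPKM + 1), a scale that understates changes of low genes, with a variance trend, 12 libraries, batch as a block, 6 residual degrees of freedom, two-sided p-values and Benjamini-Hochberg adjustment at 0.05. The procedure was tested on simulated data, with known changes put into Sle1b GC. For Sle1b GC against non-GC it called 0% of genes with a true log2 change of 1 or 2. It called 40% at 3 and 64% at 4, with 50 changed genes at each size, and 3 unchanged genes were also called. Changes of up to 2 log2 units, and many of 3 or 4, could thus be missed in a comparison within 1 genotype. The block rests on the batches of the tables: within batches 1, 2 and 3 the lowest correlation of deviations from group means was 0.289, 0.401 and 0.524, and the highest with libraries of other batches was 0.455, 0.455 and -0.275; by this check only batch 3 stood apart. Members are described in every comparison, and from each related list the 3 tested genes with the largest absolute averaged GC difference, apart from values of 2 non-member genes that are not reported here. The members and lists were chosen with earlier results of these data known. Alternatives were other pseudocounts, filters, scaling, no block, no trend, left-out libraries and batches, unjoined table means and, added after seeing the data, a join gene by gene.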

Additional observations from a re-analysis of the deposited data

How the results depend on the processing

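Of 1194 member results under alternatives, 1091 kept their direction and their side of the threshold, 17 lost a call, 8 gained one and 78 changed sign. All 17 lost calls were of *Cd55* in the averaged GC comparison, the only member call of the main fit. That call stood in 8 of its 25 alternatives, and the other results had no call to lose. The causes were not tested. *Cd55*, *Cr2*, *Fcer2a* and *Fcrl1* stayed below 0 in GC in all 75 refits of the 3 GC comparisons, so the sign changes in those comparisons were of *Cr1l*, *Cd59a*, *Fcgr2b* and *Fcrla*. In GC against non-GC over both genotypes, 4 genes were called; the count was 1 with pseudocount 0.1, 9 with pseudocount 5, 1 without a filter, 22 with a filter of 6 libraries, 58 with unjoined table means, 0 without the replicate block, 0 without batch 1, 0 without batch 2, 1 without batch 3, 562 without batch 3 with the filter redone, and 1 to 10 with 1 library left out. In Ifnar1KO 1 gene was called, against 2 with the stricter filter, 3 with table means, 3 with the join gene by gene (chosen after seeing the data), 0 without the replicate block or any 1 batch, 38 with the filter redone and 0 to 2 with 1 library left out. In Sle1b the count of 0 became 2 with the stricter filter, 7 with the filter redone and 0 to 1 with 1 library left out. For Ifnar1KO against Sle1b in GC the count of 0 became 1 with the filter redone and 0 to 1 with 1 library left out, and the interaction gave 0 to 1. A fit that leaves a group with fewer libraries assumes they vary like the others.

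The call of *Cd55* was lost with pseudocount 0.1 (adjusted p = 0.0521), without a filter (0.12), with median scaling (0.0512), without the block (0.999) and without batch 1, 2 or 3 on the same genes (0.632, 0.446 and 0.0744); the call stood in 2 of 12 fits without 1 library. *Fcer2a* passed with pseudocount 5 (adjusted p = 0.0159), the stricter filter (0.0414) and table means (0.0454), and *Cr2* with table means (0.0454).

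Signs turned as follows, in log2 units. With median scaling, GC minus non-GC in Ifnar1KO became 0.042 for *Fcgr2b* and 0.17 for *Cd59a*, and the interaction of *Fcgr2b* 0.21. With pseudocount 5, *Fcrla* became -0.066 in Ifnar1KO and -0.11 over both genotypes, and with table means -0.09 over both, while the interaction of *Fcgr2b* became 0.015. Without batch 1, *Fcgr2b* became 0.06 in Ifnar1KO, 0.28 in Sle1b and 0.17 over both, *Cd59a* 0.065 in Ifnar1KO, *Fcrla* -0.04 over both, and for Ifnar1KO against Sle1b *Cr1l* became -0.023 in non-GC and *Cd59a* 0.072 in GC. Without batch 2, *Cr1l* became 0.089 and *Cd59a* -0.47 over both, and *Cr2* -0.013 for Ifnar1KO against Sle1b in GC. Without batch 3, with or without the filter redone, GC minus non-GC in Ifnar1KO became -0.66 for *Cr1l*, 0.91 for *Cd59a* and -0.83 for *Fcrla*, and *Fcrla* became -0.47 over both. In the same fits Ifnar1KO against Sle1b became 0.11 for *Cr2*, 0.10 for *Fcgr2b* and 0.28 for *Fcrla* in non-GC, and 0.02 for *Fcgr2b* and -0.44 for *Fcrla* in GC, and the interaction became -0.72 for *Fcrl1* and -0.72 for *Fcrla*.

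With 1 library left out, GC minus non-GC spanned -0.62 to 0.30 for *Fcgr2b* in Sle1b. In Ifnar1KO it spanned -0.70 to 1.40 for *Cr1l*, -1.25 to 0.56 for *Cd59a*, -0.71 to 0.12 for *Fcgr2b* and -0.46 to 1.20 for *Fcrla*. Over both genotypes it spanned -2.66 to -2.53 for *Cd55*, -0.88 to 0.17 for *Cr1l*, -0.17 to 0.76 for *Cd59a*, -0.45 to 0.005 for *Fcgr2b* and -0.40 to 0.43 for *Fcrla*. Ifnar1KO minus Sle1b in non-GC spanned -1.16 to 0.40 for *Cr2*, -0.093 to 0.47 for *Cr1l*, -0.43 to 1.06 for *Cd59a*, -0.28 to 0.18 for *Fcer2a*, -0.68 to 0.15 for *Fcgr2b* and -0.97 to 0.40 for *Fcrla*. In GC it spanned -0.37 to 0.75 for *Cr2*, -0.86 to 0.057 for *Fcgr2b* and -0.52 to 1.14 for *Fcrla*. The interaction spanned -0.20 to 1.36 for *Cr2*, -0.59 to 0.33 for *Fcgr2b*, -0.24 to 0.63 for *Fcrl1* and -0.12 to 1.54 for *Fcrla*. One read on 1 kb was worth 0.121 to 0.407 FPKM, so single reads are a visible share of the lowest values, such as 0.568 FPKM for *Cd59a* in Sle1b GC replicate 3.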
